A study of Rattus norvegicus with 2 samples.

Results

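The genes described here remodel the acyl chains of membrane phospholipids or take phosphatidylcholine apart until choline is free. They are Lpcat1, Lpcat2, Lpcat3, Lpcat4, Mboat1, Mboat2, Pla2g6, Pnpla6, Pnpla7 and Gpcpd1. The genes were chosen with earlier results of these data known. Their probes were taken by name, as all probes for genes on the array whose gene name is among these 10 symbols. This gave 16 of the 41012 distinct probes of the array and 10 of its 33719 gene names. The array was read from liver of Wistar rats (spelled Wister in the labels) aged 7 weeks, fed either a choline-deficient diet or a control diet for 10 days. Total RNA of both diets was hybridised together to each of 2 dual-colour arrays. Choline-deficient RNA was in Cy5 and control RNA in Cy3 on array 1, and the dyes were swapped on array 2. The labels speak of 4 choline-deficient rats. They do not say whether RNA was pooled or whether the arrays held different rats. Every p-value of limma below rests on a spread between 2 arrays that is pooled mostly over all genes. That spread may be technical.

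Phosphatidylcholine, the main phospholipid of liver membranes and of lipoprotein surfaces, is made by the CDP-choline route or by methylation of phosphatidylethanolamine. Its fatty acids are then exchanged: a phospholipase A2 removes a chain to leave lysophosphatidylcholine, and a lysophospholipid acyltransferase puts another chain in its place. A lysophospholipase can instead remove the remaining chain, which leaves glycerophosphocholine, and a phosphodiesterase splits this into glycerol 3-phosphate and free choline. In a liver that receives little choline, this last route returns choline from phospholipid already made.

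Every value below comes from a 60-base probe, so the probes of the 7 genes that could be tested are shown first. Positions are those of the array files in the rat build rn4, on the strand given. No annotation of that build was used, so exon and UTR are not stated. Of the 16 probes, 12 lie on an unbroken stretch of the genome. The probe of Lpcat3 and a dim probe each of Mboat1 and Mboat2 span 134, 2794 and 1255 bases and so join separate blocks of the genome. A probe of Lpcat1 was placed over only 25 bases by the array files. The probe of Lpcat3 is given whole, and of each other probe the first 30 bases are given.
Lpcat2, chr19:15179595-15179654, minus strand: atttacaacatatttagacctccagacatg
Lpcat3, chr4:160826146-160826279, plus strand: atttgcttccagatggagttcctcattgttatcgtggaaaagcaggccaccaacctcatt
Mboat1, chr17:40790391-40790450, minus strand: tcagaacattcccaggcatgattttctctt
Pla2g6, chr7:117268245-117268304, minus strand: caggaaagtcccctcaagtgcctgtaacct
Pnpla6, chr12:2610594-2610653, minus strand: ctggactgacttgccctgtccctaagggaa
Pnpla7, chr3:5200922-5200981, plus strand: ctgcacacactcgttggaggctacttcagt
Gpcpd1, chr3:120301691-120301750, minus strand: gactgaaaatattttgtcgcctaaaaagag

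Mboat1 and Mboat2 encode related acyltransferases, and their genome-spanning probes cover matching stretches. They are shown because such a pair could bind each other's RNA. Capitals mark bases that are identical when base 14 of the Mboat1 probe is set on base 1 of the Mboat2 probe.
Mboat1, chr17:40797575-40800368, minus strand: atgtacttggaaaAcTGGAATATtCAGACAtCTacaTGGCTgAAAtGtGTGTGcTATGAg
Mboat2, chr6:42601881-42603135, plus strand: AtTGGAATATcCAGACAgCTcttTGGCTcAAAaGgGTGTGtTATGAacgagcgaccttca
The 2 sequences shared 36 of 47 aligned bases, with a longest identical run of 8 bases, and were the most alike of 114 pairs of probes for different members. Neither probe was well above background on both arrays in either diet, and the bright Mboat1 probe is a different one. No cross-binding of these probes was measured here.

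None of the 7 testable genes differed between the diets in limma's test (Benjamini-Hochberg adjusted p under 0.05), with 0 higher and 0 lower in choline-deficient liver. Across the whole array the same test called 8.62% of 18195 genes. Mboat1 had the largest mean ratio and the smallest p, and alone of the 7 passed an unadjusted p of 0.05, which 17.6% of all genes did. Lpcat3, Pla2g6, Pnpla6 and Gpcpd1 had mean log2 ratios of choline-deficient over control between -0.01 and 0.02. The intervals of all 7 (95%, limma) lay between -0.27 and 0.43 on the log2 scale, or 0.827-fold and 1.35-fold. They hold for ratios made with an offset of 50, which draws those of dim probes towards 0. The means of the deposited log ratio of Mboat1 (0.53) and Lpcat2 (0.35) lay above the upper ends of their own intervals (0.43 and 0.32). The width of the intervals comes almost wholly from the other genes, since limma set a prior of 63.0 degrees of freedom beside 1 of the gene's own. An exact two-sided sign-flip test of 2 arrays cannot go below p = 0.5. In bulk liver RNA, fewer cells of a type and less RNA per cell cannot be told apart.

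**Figure D1:**
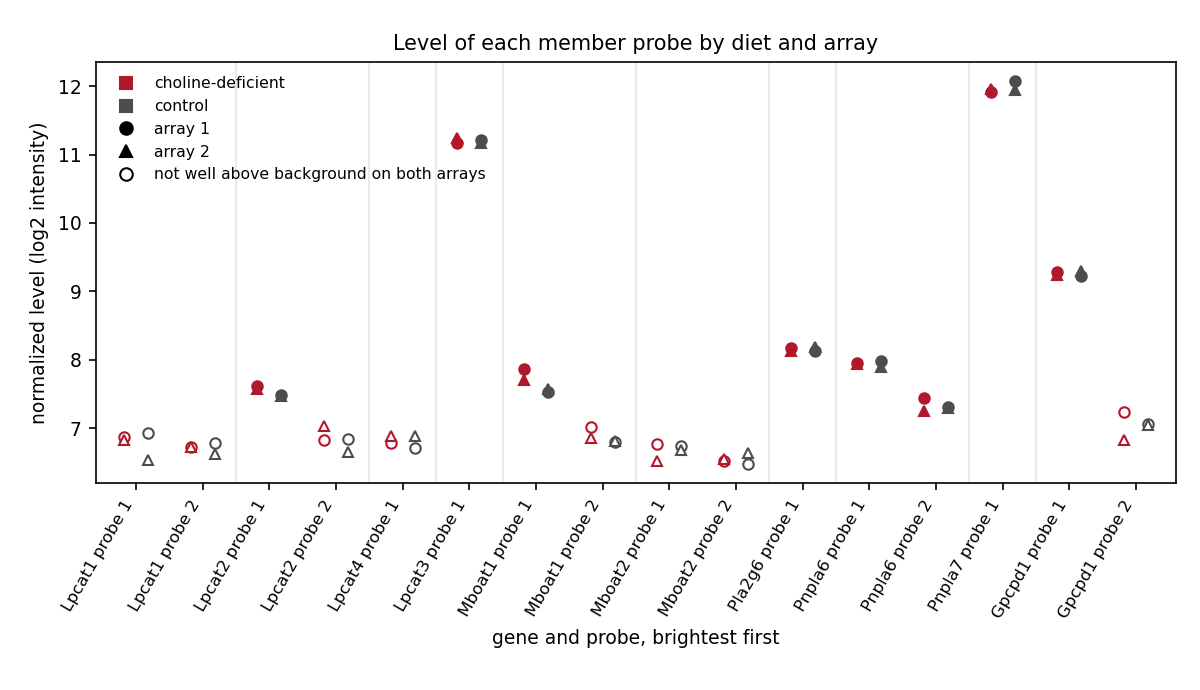
Normalized level (log2 intensity, vertical axis) of each of the 16 probes, with choline-deficient values in red on the left and control values in grey on the right of each probe. Circles are array 1 and triangles array 2, and open symbols mark a diet in which the probe was not well above background on both arrays. Levels are comparable between diets of 1 probe, not between probes. All probes of Lpcat1, Lpcat4 and Mboat2 are open, and of the filled probes only Mboat1 probe 1 and Lpcat2 probe 1 have diets that do not overlap.

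The acyltransferases fall into a family with Lpcat1, Lpcat2 and Lpcat4 and a membrane-bound family with Lpcat3, Mboat1 and Mboat2. Lpcat1, which makes the disaturated phosphatidylcholine of lung surfactant, was not well above background in either diet on either array at any of its 2 probes. The same held for the probe of Lpcat4, which acts on lysophosphatidylcholine and lysophosphatidylethanolamine, and for both probes of Mboat2, which favours unsaturated acyl chains. Their signals minus background were 26.1 to 67.6 intensity units in choline-deficient RNA and 31.5 to 70.3 in control RNA. Those values do not place a level, so no fold is given for these 3 genes.

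Lpcat2, which can make platelet-activating factor as well as phosphatidylcholine and is known from inflammatory cells, had normalized log2 levels of 7.62 and 7.58 in choline-deficient liver, against 7.48 and 7.47 in control liver (array 1 and array 2). The levels of the diets did not overlap, yet the log2 ratio was 0.12 ± 0.02 (SD, n = 2 arrays) with a limma adjusted p of 0.673. Its interval ran from -0.08 to 0.32, or 0.945-fold to 1.25-fold. The second probe of Lpcat2, not well above background in either diet, gave log2 ratios of -0.02 and 0.37. The deposited log ratio of the bright probe, turned to choline-deficient over control, was 0.42 and 0.28. Its mean of 0.35 was 2.87 times that reported here, with a limma adjusted p of 0.416. No gene tested passed with the deposited log ratio, so this p does not set Lpcat2 apart. The offset added in background correction draws ratios of dim probes towards 0, and with an offset of 16 the mean of Lpcat2 was 0.15. What sets the deposited ratio apart was not tested.

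Macrophages are a source of Lpcat2 in many tissues, so their markers are given beside it. Of 9 macrophage markers, all tested, 4 rose (Gpnmb, Trem2, Marco and Lyz2), Cd14 fell and 4 did not pass. Their summed linear level was 29123 and 30629 in choline-deficient liver, against 31864 and 29712 in control liver, so the sums overlapped. Levels are not comparable between probes and the brightest weigh most, so the sum does not measure the content of these cells. The part of these cells in the Lpcat2 values was not tested.

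Lpcat3 puts polyunsaturated chains into phosphatidylcholine and is the main such enzyme of liver and intestine. Its normalized log2 level was 11.17 and 11.25 in choline-deficient liver, against 11.21 and 11.17 in control liver, and the diets overlapped. The log2 ratio was -0.03 on array 1 and 0.08 on array 2, with a mean of 0.02 ± 0.08 (SD, n = 2 arrays, limma adjusted p = 0.978). This probe was bright, with signals minus background of 3267 and 1766 in choline-deficient RNA and 1438 and 3301 in control RNA, so the offset counts for little. The interval of the ratio, from -0.18 to 0.22, bounds a change to between 0.882-fold and 1.17-fold on the pooled spread. With median centring in place of loess the mean was 0.21, in a setting where no gene tested passed.

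Mboat1, which acylates lysophosphatidylethanolamine and lysophosphatidylserine, had log2 levels of 7.86 and 7.70 in choline-deficient liver, against 7.53 and 7.57 in control liver. Both choline-deficient values lay above both control values. The log2 ratio was 0.33 on array 1 and 0.13 on array 2, a mean of 0.23 ± 0.14 (SD, n = 2 arrays) or 1.17-fold, with an interval from 1.02-fold to 1.35-fold. The unadjusted p of limma was 0.0280 and the adjusted p 0.195, so the difference did not pass, and 85.7% of all genes tested had a smaller mean ratio in size.

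The size of the Mboat1 ratio depended on the processing more than its sign. In the authors' deposited log ratio, turned to choline-deficient over control, it was 0.78 on array 1 and 0.29 on array 2. The error model of the authors' software gave p = 0.00186 for array 1 and p = 0.250 for array 2, each within 1 array. Limma on these deposited ratios gave a mean of 0.53 with an adjusted p of 0.415. Over 6 alternatives the adjusted p ran from 0.166 to 1.00. With the deposited ratios and with median centring no gene tested passed, so the adjusted p of these settings does not set Mboat1 apart. The genome-spanning Mboat1 probe shown above was well above background only in choline-deficient RNA on array 1 and gave log2 ratios of 0.22 and 0.05. That probe had the sign of the bright one on both arrays with the offset, but its deposited log ratios were 2.08 and -0.29, which differ in sign.

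**Figure D2:**
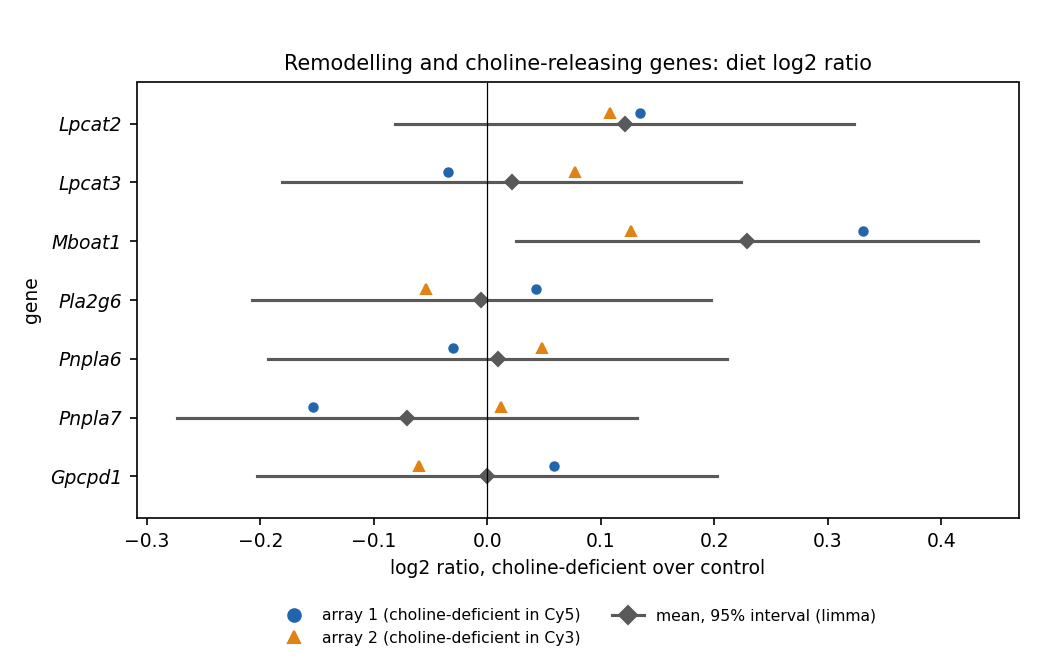
Log2 ratio of choline-deficient over control (horizontal axis) for the 7 genes with a tested probe. Circles are array 1, triangles array 2, diamonds the mean and bars its 95% interval in limma. Only Lpcat2 and Mboat1 have both arrays on the same side of 0, and no gene passed an adjusted p of 0.05.

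On the hydrolytic side, Pla2g6 encodes a calcium-independent phospholipase A2 that frees a chain from phosphatidylcholine and other phospholipids. Its log2 level was 8.17 and 8.13 in choline-deficient liver, against 8.13 and 8.19 in control liver. The diets overlapped and the log2 ratio was -0.01 ± 0.07 (SD, n = 2 arrays, limma adjusted p = 0.996), with an interval from -0.21 to 0.20.

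Pnpla6, neuropathy target esterase, and its relative Pnpla7 remove acyl chains from lysophosphatidylcholine and so yield glycerophosphocholine. Pnpla6 had log2 levels of 7.95 and 7.94 in choline-deficient liver, against 7.98 and 7.89 in control liver, and a log2 ratio of 0.01 ± 0.05 (adjusted p = 0.994). A second probe of Pnpla6 that was also well above background in both diets gave 0.13 and -0.04 on the 2 arrays. The probes lie about 1 kb apart by the array files and neither separated the diets on both arrays, although the deposited log ratio of the second was 0.39 and 0.28.

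Pnpla7, known from liver as a lysophospholipase, had log2 levels of 11.92 and 11.96 in choline-deficient liver, against 12.07 and 11.95 in control liver. The control value of array 1 was the highest of the 4 and the other 3 lay close together. The log2 ratio was -0.15 on array 1 and 0.01 on array 2, with a mean of -0.07 ± 0.12 (SD, n = 2 arrays, limma adjusted p = 0.875), the lowest of the 7 genes. The interval ran from 0.827-fold to 1.10-fold. With median centring the mean was 0.12, so its sign depended on the normalization. The median over all genes tested was then 0.08, against 0.00 with loess.

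Gpcpd1 encodes the phosphodiesterase that releases choline from glycerophosphocholine. Its log2 level was 9.29 and 9.24 in choline-deficient liver, against 9.23 and 9.30 in control liver. The 2 arrays gave 0.06 and -0.06, which cancel in the mean (0.00 ± 0.08, SD, n = 2 arrays, limma adjusted p = 1.00), and the interval ran from 0.869-fold to 1.15-fold. A dimmer Gpcpd1 probe had a log ratio deposited by the authors of 1.00 on array 1 (p = 0.0220 in their error model) and -0.16 on array 2 (p = 0.754). It was well above background on only 1 array in each diet, and with the offset it gave 0.17 and -0.22, opposite in sign.

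Set side by side, the 7 genes had a median log2 ratio of 0.01 and a median size of 0.02, against 0.00 and 0.08 over all genes tested. In 2 of the 7, Lpcat2 and Mboat1, the ratios of both arrays had the same sign, against 56.4% of all genes tested. The same 2 genes had levels that did not overlap between diets, against 43.6% of all genes tested. The SD over arrays ran from 0.02 for Lpcat2 to 0.14 for Mboat1, while 10 spots of 1 probe on an array had a median SD of 0.0614 on array 1 and 0.0507 on array 2. Differences between members were not tested. The members were chosen with earlier results of these data known, so these comparisons with all genes are a description.

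**Figure D3:**
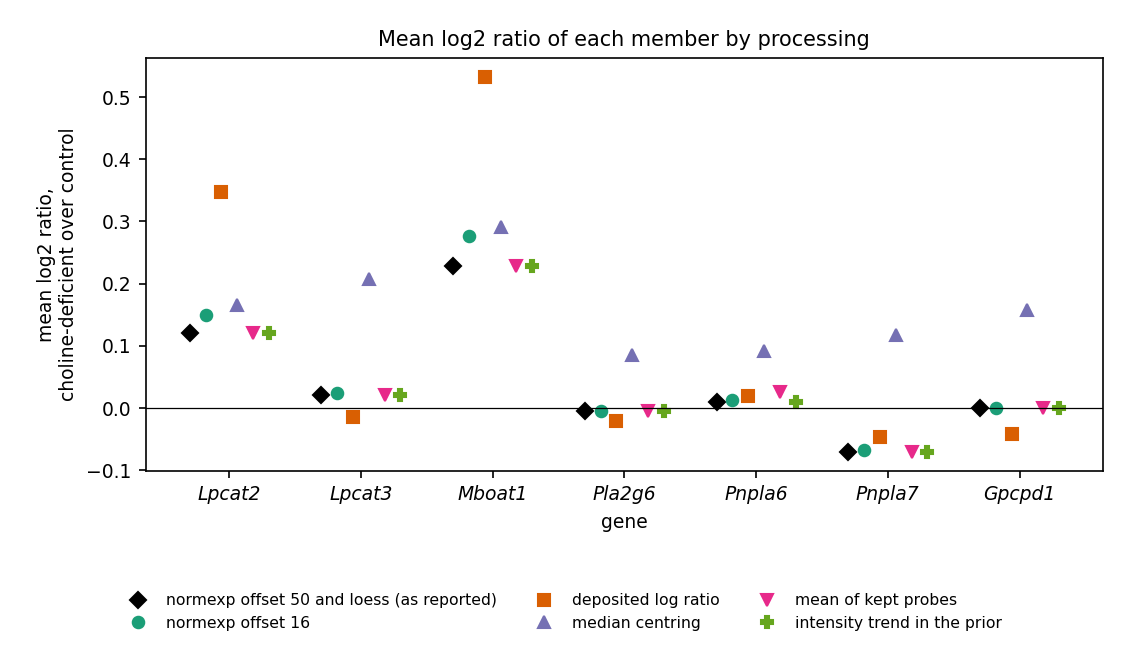
Mean log2 ratio of choline-deficient over control (vertical axis) for each tested gene under 6 ways of processing, named in the legend. Mboat1 and Lpcat2 stay above 0 in all 6 and are highest with the deposited log ratio (0.53 and 0.35). Median centring lies above the reported value in each of the 7 genes.

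Other genes of phospholipid acylation, deacylation and head-group removal were read from a list of 56 symbols, of which 55 were on the array and 47 were tested. Of these 47, 5 rose, 4 fell and 38 did not pass, or 19.1% called, against 8.62% of all genes tested (4.37% higher and 4.25% lower). Their median log2 ratio was -0.05, against 0.00 over all genes. The list was drawn up with results of these data known, so its count is a description. The 5 that rose include Pnpla3, which was not well above background in control liver on either array. With the deposited log ratio and with median centring none of the 9 calls was kept, and there limma called 0 of 18195 genes. The signs of all 9 were kept in each of the 6 alternatives tested.

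The 4 genes that fell were Enpp2, Lcat, Gde1 and Smpd3. Enpp2 encodes autotaxin, which removes choline from lysophosphatidylcholine outside the cell and leaves lysophosphatidic acid. Its log2 levels were 9.24 and 9.18 in choline-deficient liver, against 9.69 and 9.97 in control liver. The diets did not overlap and the level was 0.651-fold that of control liver (log2 ratio -0.62 ± 0.24, SD, n = 2 arrays, adjusted p = 6.10e-06 in limma). Lcat, the plasma enzyme that moves a chain from phosphatidylcholine to cholesterol and leaves lysophosphatidylcholine, had 13.73 and 13.93 in choline-deficient liver, against 14.33 and 14.17 in control liver (-0.42 ± 0.26, adjusted p = 0.00330).

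Gde1, a glycerophosphodiester phosphodiesterase of the same family as Gpcpd1, had 11.47 and 11.57 in choline-deficient liver, against 11.85 and 11.93 in control liver. Its ratio differed little between arrays (-0.37 ± 0.02, adjusted p = 0.0103). Smpd3, a neutral sphingomyelinase that splits sphingomyelin into ceramide and phosphocholine, had 7.54 and 7.65 in choline-deficient liver, against 7.82 and 8.09 in control liver (-0.36 ± 0.11, adjusted p = 0.0125). With the deposited log ratio Smpd3 was at -0.72.

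Of the 5 genes that rose, Pla2g7 had the largest ratio. It encodes the lipoprotein-associated phospholipase that inactivates platelet-activating factor, the lipid that Lpcat2 can make, and is known from macrophages. Its log2 levels were 8.78 and 8.84 in choline-deficient liver, against 7.92 and 7.74 in control liver, with a gap between the diets far wider than that between arrays. This was a rise of 1.98-fold (log2 ratio 0.98 ± 0.17, SD, n = 2 arrays, adjusted p = 1.15e-11 in limma). The mean log2 ratio of Pla2g7 was 1.11 with an offset of 16 and 1.48 with the deposited log ratio, so its size depended on the processing. The macrophage markers Gpnmb (1.55 ± 0.33), Trem2 (0.93 ± 0.01), Marco (0.91 ± 0.13) and Lyz2 (0.69 ± 0.24) rose too, whereas Cd68 (0.16 ± 0.14), Csf1r (0.12 ± 0.00), Cd163 (-0.06 ± 0.11) and Clec4f (-0.29 ± 0.23) did not pass. Cd14, the remaining marker of the list, fell (-0.41 ± 0.01, adjusted p = 0.00367). The summed level of the 9 markers overlapped between the diets, as given above, but does not measure macrophage content. The part of macrophages in the rise of Pla2g7 was not tested.

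Pnpla3, a lipase and acyltransferase of lipid droplets, was well above background on both arrays in choline-deficient liver and on neither in control liver. At its brightest probe the log2 ratio was 0.57 ± 0.06 (SD, n = 2 arrays), with a limma interval from 0.36 to 0.77 (adjusted p = 2.52e-05). Taken against the lowest level of detected probes or the probe's own, the fold was 1.43. That is a point value and no lower bound, since the interval and the other probe reach lower. Pnpla3 was kept for the choline-deficient diet alone. Its control signals do not place a level, so the size of the rise and its p-value are uncertain. The other Pnpla3 probe, also not well above background in control liver, gave smaller log2 ratios of 0.25 and 0.24. The mean of both probes was 0.40 (adjusted p = 0.00314). Agpat4, an acyltransferase of lysophosphatidic acid, rose by 0.38 ± 0.14 (SD, n = 2 arrays, adjusted p = 0.00821). Pla1a, a phospholipase A1 of phosphatidylserine, rose by 0.33 ± 0.10 (adjusted p = 0.0260).

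Pla2g16, now named Plaat3, a phospholipase of adipose tissue that acts on phosphatidylcholine, rose by 0.32 ± 0.01 (adjusted p = 0.0343), and its second probe gave a mean of 0.30. With an offset of 16 the calls of Pla1a (0.34, adjusted p = 0.0723) and Pla2g16 (0.32, adjusted p = 0.0944) were lost at ratios no smaller than those reported. That of Pnpla3 was lost too (0.33, adjusted p = 0.0908), where its other probe was the brighter and was used instead. Without the filter on dim probes those of Pla1a and Pla2g16 were lost (0.0611 and 0.0771). The 4 largest ratios that did not pass were those of Agpat3 (0.27 ± 0.10), Pla2g12a (0.27 ± 0.10), Smpd2 (0.16 ± 0.05) and Lclat1 (-0.15 ± 0.07). Lclat1 was kept for the control diet alone, being well above background on only 1 array in choline-deficient liver. Its deposited log ratios were 0.02 on array 1 and -0.57 on array 2. With an intensity trend in limma, Pla2g12a passed (adjusted p = 0.0458). A dimmer probe of Agpat3 was at -0.01. With median centring the means of Gde1 and Lcat came to -0.18 and -0.25, and those of Pla1a and Pla2g16 to 0.50 and 0.51. With the deposited log ratio the mean of Pnpla3 came to 3.52, over control signals not well above background, so it does not place a fold. The other Pnpla3 probe had deposited log ratios of 1.62 on array 1 and 1.19 on array 2.

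**Figure D4:**
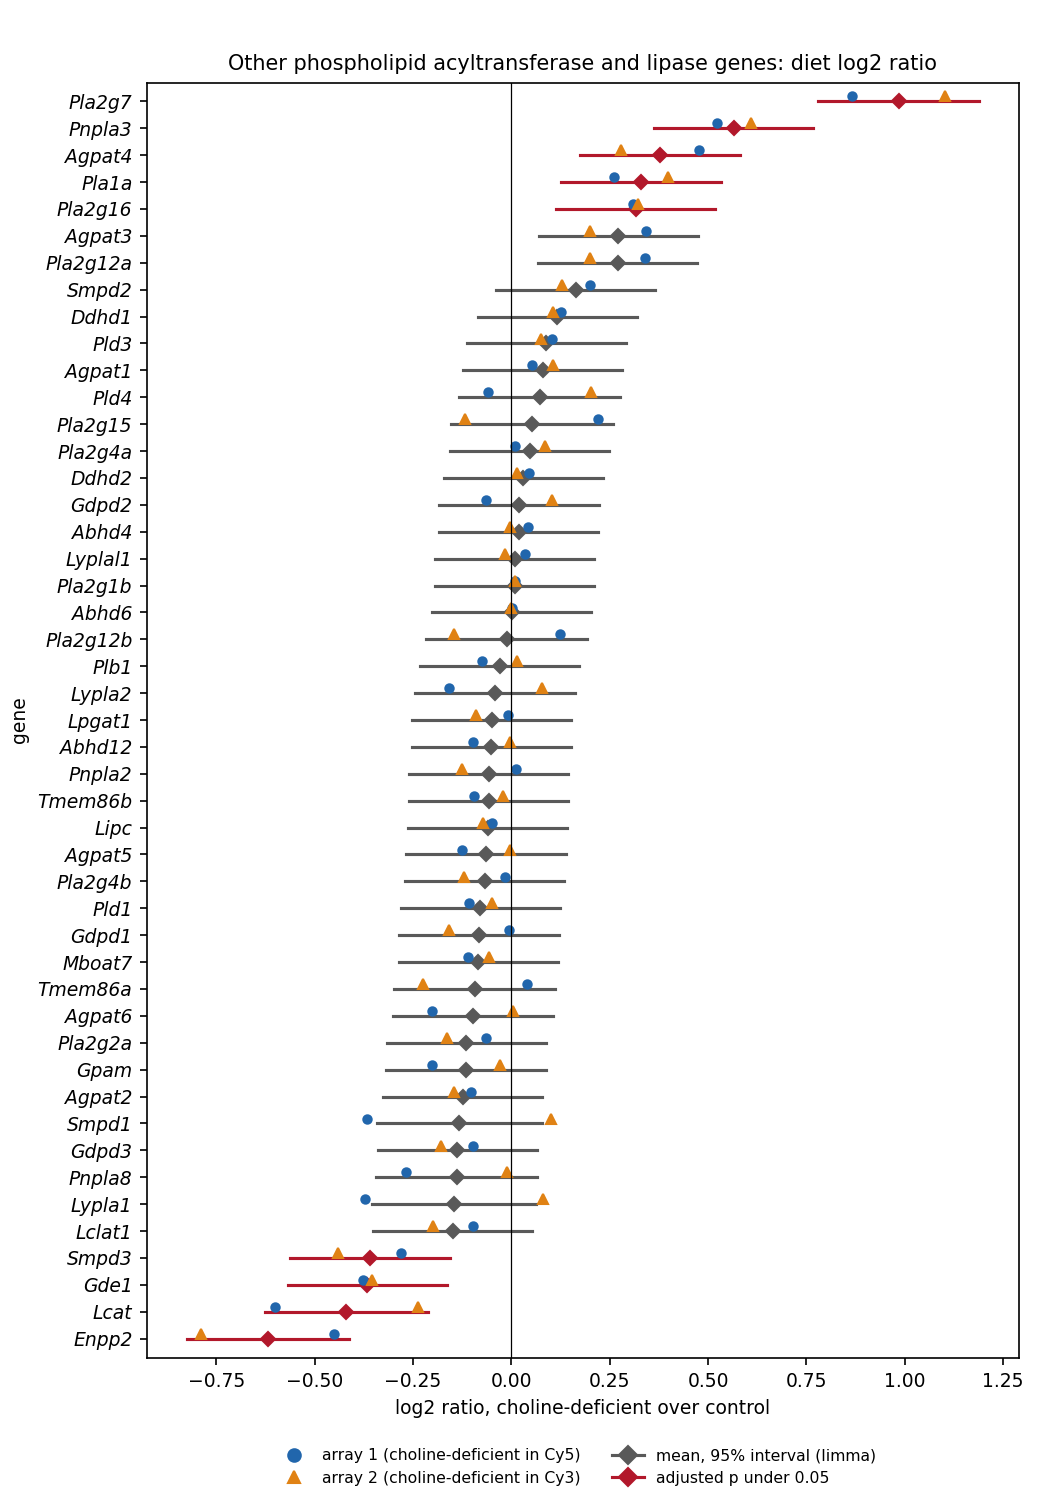
Log2 ratio of choline-deficient over control (horizontal axis) for the 47 other phospholipid acyltransferase and lipase genes tested, sorted by mean. Circles are array 1, triangles array 2, diamonds the mean with its 95% interval in limma, in red where the adjusted p was under 0.05. Pla2g7 stands at the top (0.98) and Enpp2 at the bottom (-0.62), and 38 genes are grey.

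The arrays held liver RNA by their markers: 8 of 8 hepatocyte markers, among them Alb and Ttr, were well above background in both diets on both arrays. Of them Apoa1 rose, Alb and Fgb fell and 5 did not pass. Among markers of other cells, 0 of 4 cholangiocyte and 0 of 2 erythroid markers passed, 1 of 5 endothelial (Kdr, lower), 1 of 5 stellate (Col1a1, higher), 1 of 3 neutrophil (S100a8, higher) and 1 of 3 lymphocyte markers (Gzma, lower). Well above background were 62.9% of gene spots in choline-deficient RNA against 54.2% in control RNA on array 1, and 53.5% against 63.2% on array 2, so the Cy5 channel had the higher share on both. No gene spot was saturated. The log2 ratios of the arrays correlated across 18195 genes, which are not independent replicates, with a Pearson r of 0.55 and a Spearman rho of 0.30. With 2 arrays, no value is more precise than their spread allows.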

How the data were processed

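Per the file headers, the authors used Agilent Feature Extraction 9.5.3.1, and the submitters' processing notes give 9.5. The deposited files hold the intensity of spots and of their background in both dyes. The authors also gave a log10 ratio (Cy5 over Cy3), made after background subtraction, detrending and lowess, and a p-value of each ratio from an error model within 1 array. The series table equalled that log10 ratio in 45018 of 45018 rows on both arrays (within 1%). Its median was 0 and it was not turned for the dye swap, so it was not run separately.

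Here limma 3.58.1 in R 4.3.3 corrected mean signal for median background by normexp with an offset of 50, applied loess to each array, giving control spots no weight, dropped outlier spots (174 and 151) and averaged spots of a probe. The offset draws ratios of dim probes towards 0. Log2 ratios were turned to choline-deficient over control. Levels by diet are log2 intensities after loess and A-quantile scaling. Probes had to be well above background in 1 diet or both, on array 1 and on array 2, and a gene took its brightest such probe (18195 genes). Ratios were tested against 0 by lmFit and eBayes, two-sided, with Benjamini-Hochberg adjustment over all genes. Only this last step, from lmFit to the adjustment, was tried on simulated ratios with known changes. The steps before it were not.

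All 10 members are named. Of the 56 related genes, those past an adjusted p of 0.05 are named, with the 4 largest others. Members and lists were chosen with earlier results of these data known. Current symbols are those of RefSeq's GRCr8 table. Alternatives were an offset of 16, the deposited log ratio, median centring, no filter on dim probes, the mean of kept probes, an intensity trend and leaving out each array.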

Additional observations from a re-analysis of the deposited data

How the results depend on the processing

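None of the members was called under any of the 6 alternatives tested. Over all genes, 1568 were called as reported, 1203 with an offset of 16, 1223 without the filter, 1533 with the mean of kept probes and 1833 with an intensity trend. With the deposited log ratio limma called 0 (2122 at an unadjusted p under 0.05), and with median centring 0 (19 at an unadjusted p under 0.05). The 9 calls among related genes became 0 under both, and 6 to 10 under the others. Of 42 log2 ratios of members under alternatives, 37 kept their sign. With median centring Gpcpd1 was at 0.16, Pnpla7 at 0.12 and Pla2g6 at 0.0856, with an offset of 16 Gpcpd1 was at 0.0001, and with the deposited log ratio Lpcat3 was at -0.0146. Over all genes tested the median log2 ratio was 0.08 with median centring, against 0.00 as reported. The cause of the changed signs was not tested. A single array gives values with no test, those of the arrays printed above. They ran from 0.13 to 0.33 for Mboat1, 0.11 to 0.13 for Lpcat2, -0.03 to 0.08 for Lpcat3, -0.05 to 0.04 for Pla2g6, -0.03 to 0.05 for Pnpla6, -0.15 to 0.01 for Pnpla7 and -0.06 to 0.06 for Gpcpd1. The reported test is already paired, since each ratio sets both diets of 1 array against each other, and no further replicate block was fitted. Signal over background limits Lpcat1, Lpcat4 and Mboat2, which were well above background in neither diet.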
